A study of Paxillus involutus with 18 samples.

Results

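The catechol 1,2-dioxygenases paxillus_6174 and paxillus_6175 and the quinate transporters paxillus_8507 and paxillus_8080 are 4 of the 12214 isotigs, the assembled transcripts, that were measured in the ectomycorrhizal fungus *Paxillus involutus*. They were taken by name from the isotigs that the study lists as upregulated on organic matter. The study assigns both dioxygenase isotigs to 1 isogroup, its term for a gene, and the transporters to a different isogroup each. The wild-type strain ATCC 200175 was grown for 9 days on glass beads in the mineral medium MMN, starved of N for 24 h and then kept for 7 days in 1 of 5 media. These were a hot-water extract of forest litter (FH), a hot-water (MH) and a cold-water (MC) extract of maize compost, carboxy methyl cellulose (CMC), and MMN as the control. The extracts had been filtered at 0.2 µm and freed of small compounds with a cut-off of 10 kDa, and all media held glucose. Every medium was hybridised in triplicate, FH and MH with an MMN control on slide 1, and MC and CMC with an MMN control on slide 2, so that 18 arrays were compared.

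Catechol dioxygenases of this type are intracellular enzymes that open the ring of catechol between its hydroxyl groups, and the product, muconate, feeds into central metabolism through the oxoadipate pathway. Catechols are common intermediates in the breakdown of lignin residues and other phenolic compounds. Quinate is a cyclic acid made by plants and by microbes from the shikimate pathway. In *Neurospora crassa* and *Aspergillus nidulans* it enters the cell through a permease of the sugar transporter family and is broken down by way of protocatechuate, itself a dihydroxylated ring. The 2 activities therefore stand for uptake and for ring opening of cyclic compounds, although the substrates of these 4 isotigs were not measured.

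Levels are given as deposited, on the log2 scale, where a difference of 1 is a 2-fold change. Each isotig was covered by 10 probes. The levels of all 4 lay between 11.36 and 13.41. This was far above the random control entry, 1 deposited value for each array over 10000 probes, which lay between 3.69 and 3.85. The array medians lay between 11.45 and 11.47, and paxillus_6175 on MMN was near them. The replicates are labelled as biological, but the step at which the cultures parted is not stated, and p-values reflect the spread between these arrays only. The values come from whole mycelium, in which more RNA per cell and more cells that express a gene cannot be told apart. The description of MC replicate 3 names MH, in conflict with its other labels. The array was used as MC, and its level of paxillus_6174, 12.83, was nearer to those of the other MC arrays than to the lowest MH array, at 13.02. Its levels of both transporters fell between those of the other MC arrays.

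The dioxygenase isotig paxillus_6174 had levels of 12.01, 11.76 and 11.89 on the MMN arrays of slide 1. On FH the levels were 12.56, 12.29 and 12.52, and on MH they were 13.02, 13.09 and 13.07. All 6 arrays of these hot water extracts lay above the MMN arrays, and all MH arrays lay above all FH arrays. On slide 2 the levels were 12.08, 11.90 and 12.01 on MMN and 12.76, 12.70 and 12.83 on MC. On CMC they were 12.24, 12.38 and 12.25. Each CMC array was thus above the MMN arrays and below the MC arrays.

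Its partner paxillus_6175, from the same isogroup, had levels of 11.55, 11.36 and 11.60 on MMN of slide 1. They were 12.07, 11.85 and 11.81 on FH and 12.63, 12.61 and 12.63 on MH. The MH arrays were again the highest, and they agreed more closely than those of any other group did for this isotig. On slide 2 the levels were 11.79, 11.44 and 11.60 on MMN and 12.40, 12.37 and 12.34 on MC. They were 11.79, 11.94 and 11.77 on CMC, where the lowest array fell just below the highest MMN array.

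The quinate transporter paxillus_8507 had levels of 12.16, 12.12 and 12.13 on MMN of slide 1. They were 12.66, 12.67 and 12.66 on FH and 12.92, 12.86 and 12.92 on MH, with no overlap between the 3 groups. On slide 2 the levels were 12.21, 12.12 and 12.07 on MMN and 12.16, 12.35 and 12.34 on MC. On CMC they were 12.78, 12.78 and 12.73. Here the order of the 2 media was the opposite of that of the dioxygenases: CMC was the higher, and MC replicate 1 lay within the range of MMN.

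The other transporter, paxillus_8080, had levels of 12.72, 12.64 and 12.69 on MMN of slide 1, with 13.07, 13.23 and 13.16 on FH and 13.39, 13.41 and 13.37 on MH. On slide 2 they were 12.61, 12.59 and 12.70 on MMN and 12.78, 12.96 and 12.94 on MC. They reached 13.25, 13.31 and 13.29 on CMC. MC replicate 1 was the lowest MC array for both transporters, though not for the dioxygenases, and all CMC arrays were above all MC arrays.

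**Figure D1:**
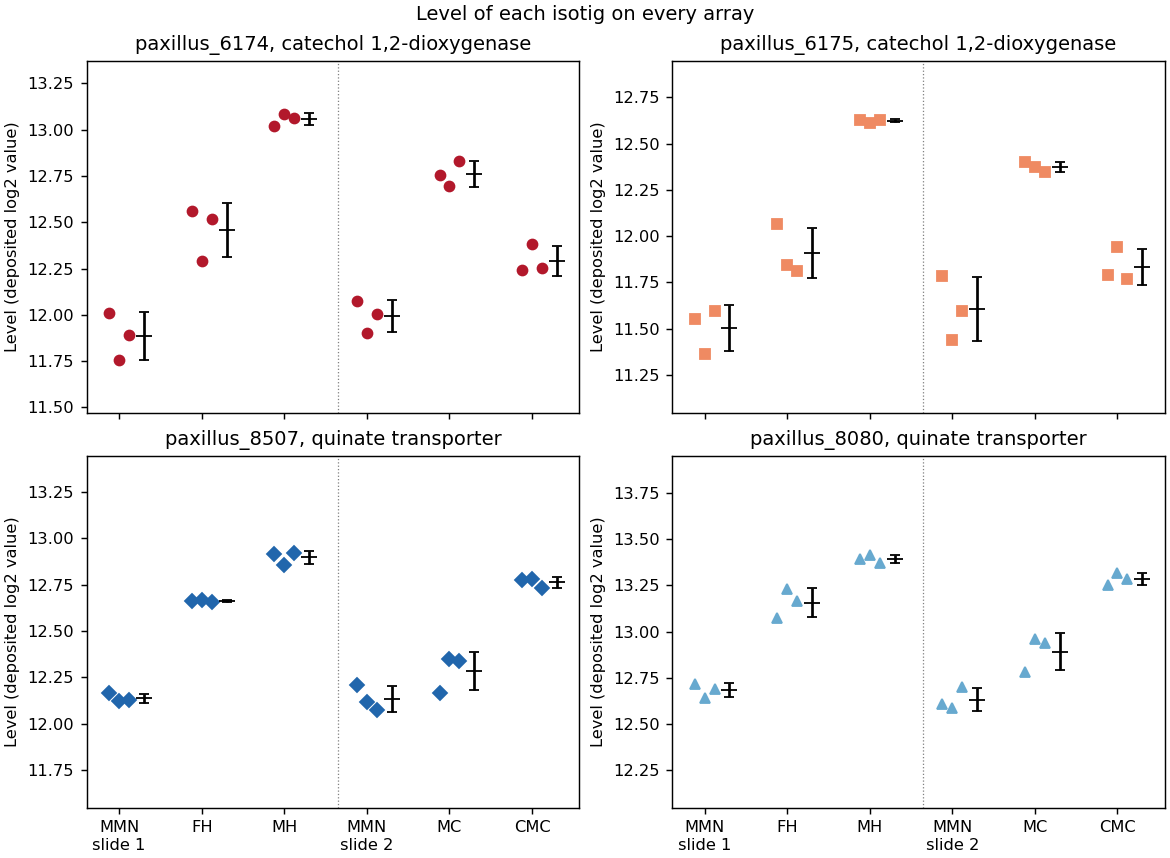
Level of each isotig (deposited log2 value, vertical axis, the same span in each panel) on each of the 18 arrays by medium, with the mean and SD of the 3 arrays beside them and a dotted line between the slides. The dioxygenases are higher on MC than on CMC, the transporters are higher on CMC than on MC, and all 4 are highest on MH.

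In the order of the mean levels, MH came first for all 4 isotigs and the MMN groups came last. For paxillus_6174 the order was MH, MC, FH, CMC and MMN, and only the arrays of FH and CMC and those of the MMN groups of both slides overlapped between neighbours. For paxillus_6175 the order was the same, and overlap extended from FH through CMC to MMN. Both transporters followed the order MH, CMC, FH, MC and MMN. Their neighbours overlapped only between the MMN groups, although for paxillus_8507 MC and MMN of slide 2, which are not neighbours in this order, overlapped as well. The MMN means of slide 2 and slide 1 differed by 0.11 for paxillus_6174, 0.10 for paxillus_6175, -0.01 for paxillus_8507 and -0.05 for paxillus_8080. Taken by replicate number, slide 2 minus slide 1 was 0.06, 0.14 and 0.12 for paxillus_6174 and 0.23, 0.08 and 0.0007 for paxillus_6175. The MMN array of slide 2 was thus the higher one for every number in both dioxygenases. For the transporters the sign varied, with 0.04, -0.0041 and -0.06 for paxillus_8507 and -0.11, -0.06 and 0.01 for paxillus_8080. The orders above set arrays of both slides side by side, and the part of the slide in them was not tested. The changes against the MMN arrays of the same slide had the same order of media for each isotig.

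Carboxy methyl cellulose, a soluble derivative of cellulose, is not among the media that the study's text names for its selection. The change from MMN to CMC was therefore tested. The legend of the study's figure lists CMC among the substrates, so the rule may also have covered CMC. Both quinate transporters rose. The log2 fold change of paxillus_8507 was 0.63 (standard error 0.05, adjusted p = 3.2e-08 from limma), or 1.55-fold with a 95% interval of 1.43 to 1.67. That of paxillus_8080 was 0.65 (standard error 0.06, adjusted p = 4.2e-08 from limma), or 1.57-fold with an interval of 1.45 to 1.70. Dioxygenase paxillus_6174 rose less, by 1.23-fold (interval 1.10 to 1.37, adjusted p = 0.0034 from limma). For paxillus_6175 the log2 fold change was 0.23 (standard error 0.08, interval 0.05 to 0.40, adjusted p = 0.030 from limma), which missed the threshold of 0.01.

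Thus 3 of the 4 isotigs passed this p and were higher on CMC, where 19.0% of all isotigs did so. None of the 4 was over 2-fold, and 1.66% of all isotigs were called higher by p and fold together. On all 3 arrays, 3 of the 4 lay above all MMN arrays, as did 25.8% of all isotigs. Over all isotigs, the median log2 fold change was -0.07. The adjusted p of paxillus_6174 from limma was 0.022 without MMN replicate 2 of slide 2 and 0.023 without CMC replicate 2. Its pass at 0.01 thus rests on both arrays. The adjusted p of paxillus_6175 was 0.0059 without MMN replicate 1 of slide 2, 0.175 without replicate 2 and 0.061 without replicate 3 of the same group. The MMN arrays of slide 2 also served as the control of MC, by which the isotigs were selected, so the test on CMC is not fully separate from the selection.

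The transporters changed more than the dioxygenases on CMC. The difference of the log2 fold changes was 0.33 between paxillus_8507 and paxillus_6174 (95% interval 0.15 to 0.52) and 0.40 between paxillus_8507 and paxillus_6175 (interval 0.21 to 0.60). It was 0.35 between paxillus_8080 and paxillus_6174 (interval 0.14 to 0.56) and 0.42 between paxillus_8080 and paxillus_6175 (interval 0.19 to 0.66). All 4 intervals, from a linear model of the difference of 2 isotigs on each array and not adjusted for the 6 pairs compared, lay above 0. Within the families no difference was resolved. It was 0.07 for paxillus_6174 minus paxillus_6175 (interval -0.08 to 0.22) and -0.02 for paxillus_8507 minus paxillus_8080 (interval -0.13 to 0.10), so a gap of up to these bounds remains possible.

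The changes on the 3 extracts are those by which the study selected the isotigs and are given as a description. On MH the log2 fold changes were 1.17 for paxillus_6174, 1.12 for paxillus_6175, 0.76 for paxillus_8507 and 0.71 for paxillus_8080. Both dioxygenase isotigs were thus over 2-fold on MH and both transporters under it. By p and fold together 4.49% of all isotigs were called higher there. On FH the values were closer to each other, with 0.57, 0.40, 0.53 and 0.47 in the same order. By the same rule 0.966% of all isotigs were higher on FH, and none of the 4 was over 2-fold. On MC the families parted again, with 0.77 for both paxillus_6174 and paxillus_6175, 0.15 for paxillus_8507 and 0.26 for paxillus_8080. None of these was over 2-fold, where 2.81% of all isotigs were called higher. On all 3 arrays, every one of the 4 isotigs lay above the MMN arrays on FH and on MH, as did 23.0% and 32.9% of all isotigs, and 3 of the 4 did so on MC, as did 26.3%. Standard errors on all media were 0.08 for the dioxygenases, 0.05 for paxillus_8507 and 0.06 for paxillus_8080.

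Leaving out MC replicate 3, the array with the conflicting description, gave changes on MC of 0.73 for paxillus_6174, 0.78 for paxillus_6175, 0.13 for paxillus_8507 and 0.24 for paxillus_8080. Leaving out MC replicate 1, the low array of both transporters, gave 0.21 for paxillus_8507 and 0.32 for paxillus_8080. The gap to the dioxygenases on MC was therefore present with and without either array.

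**Figure D2:**
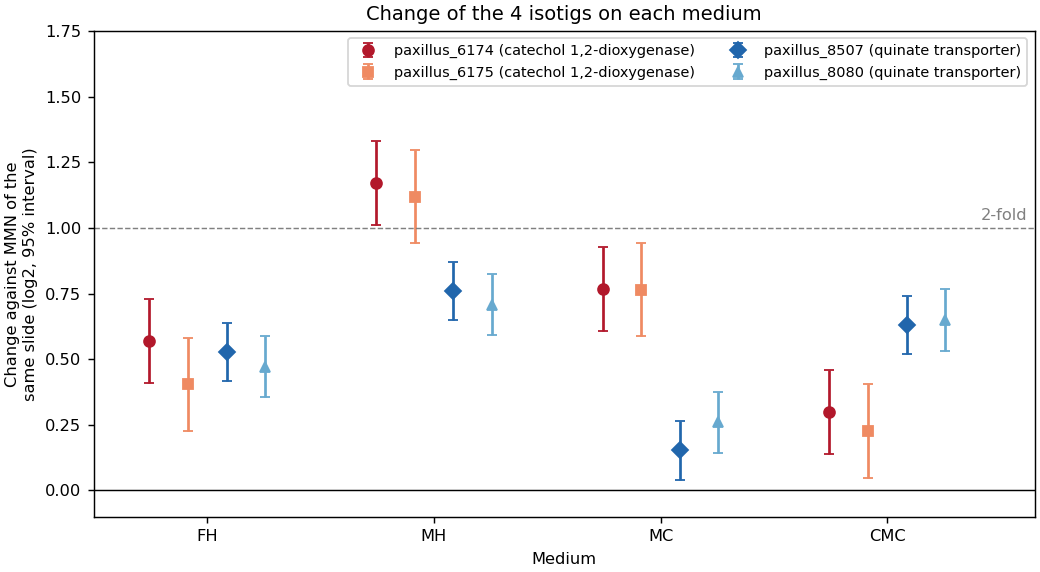
Log2 fold change of the 4 isotigs on each medium against the MMN arrays of the same slide (vertical axis), with 95% intervals from the fit and a dashed line at 2-fold. On MH and MC the dioxygenases lie above the transporters, at 1.17 and 1.12 against 0.76 and 0.71 on MH, and on CMC they lie below them, at 0.30 and 0.23 against 0.63 and 0.65.

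The threshold for the selection was a change of more than 2-fold on at least 1 extract. Read as log2 values, the largest change of the transporters was 1.69-fold for paxillus_8507 and 1.63-fold for paxillus_8080, both on MH. The exponential of the same differences, which treats the values as natural logarithms, was 2.14 and 2.03, so both transporters are just inside the threshold on that reading only. The selection of the transporters by the study thus fits the exponential reading, on which every fold given here would be larger. Whether this lies in the base of the deposited values or in how the study computed its ratios was not tested. The base of the logarithm is not stated. The dioxygenases were inside it on both readings on MH. On MC their exponentials were 2.15 each, just inside, and the nearest values outside were those of both transporters on CMC, 1.88 and 1.92. The log2 reading was kept for the folds given here. Natural logarithms would mean that 63.5% to 66.3% of the isotigs exceeded the range of a 16-bit image, against 0% for log2 values. When quantile normalization was repeated, the log2 fold changes on MH were 0.68 for paxillus_8507 and 0.61 for paxillus_8080. Both then lay below 0.69, the natural logarithm of 2.

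Media of 1 slide can be set against each other without the MMN arrays. On slide 2, CMC minus MC was -0.47 on the log2 scale for paxillus_6174 and -0.54 for paxillus_6175, which is 1.39-fold and 1.45-fold more on the cold compost extract. The same difference was 0.48 for paxillus_8507 and 0.39 for paxillus_8080, or 1.39-fold and 1.31-fold more on CMC. In none of the 4 did the arrays of the 2 media overlap, as in 42.2% of all isotigs. Of all isotigs, 3.34% had a difference as low as that of paxillus_6174 and 2.55% one as low as that of paxillus_6175. At the other end, 2.49% had one as high as that of paxillus_8507 and 3.82% one as high as that of paxillus_8080.

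On slide 1, MH minus FH compares compost with forest litter, both extracted with hot water. It was 0.60 for paxillus_6174 and 0.71 for paxillus_6175, and 0.23 for paxillus_8507 and 0.24 for paxillus_8080. On MH the arrays lay above those of FH for all 4, as for 29.5% of all isotigs. Differences at least as high were found in 4.12% and 2.44% of all isotigs for the dioxygenases, and in 21.5% and 21.3% for the transporters. The difference between the compost and litter extracts was thus larger for the dioxygenase isotigs than for the transporters. The MC arrays were used in the selection, as were those of FH and MH, so these differences carry no test.

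Across the slides, the changes against the MMN arrays of each slide were compared. The change on the hot water extract of compost exceeded that on the cold water extract for all 4 isotigs, by 0.40 for paxillus_6174, 0.35 for paxillus_6175, 0.61 for paxillus_8507 and 0.45 for paxillus_8080. Between CMC and MH the dioxygenases differed by -0.87 and -0.89, whereas paxillus_8507 differed by -0.13 and paxillus_8080 by -0.06. The transporters thus changed on CMC to within 0.13 of their change on MH, the extract on which all 4 changed most.

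**Figure D3:**
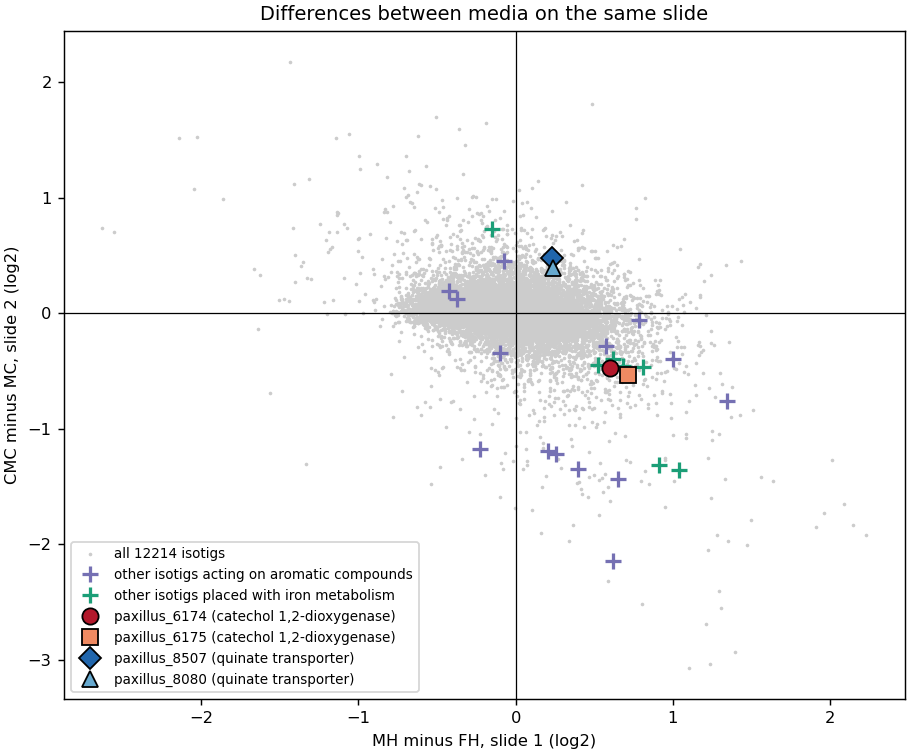
Difference between MH and FH on slide 1 (horizontal axis, log2) and between CMC and MC on slide 2 (vertical axis, log2) for all 12214 isotigs, with the 4 isotigs and the listed isotigs of related function marked. Both dioxygenases lie to the lower right, at 0.60 and 0.71 across and -0.47 and -0.54 up, and both transporters lie above 0 on both axes.

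Other isotigs of related function were compared on CMC. The list of 14 isotigs that act on aromatic compounds holds laccases and tyrosinases, which oxidise phenols, cytochrome P450 monooxygenases, an aromatic peroxygenase and a haem peroxidase. On CMC 9 of the 14 passed an adjusted p of 0.01 and were higher, where 19.0% of all isotigs did so. Of the 14, 5 were also over 2-fold, as were 1.66% of all isotigs, and none passed the p and was lower. The haem peroxidase paxillus_5582 was 3.09-fold higher (adjusted p = 2.2e-09 from limma) and laccase paxillus_8102 was 2.89-fold higher (adjusted p = 3.6e-10). Of those that did not pass, the peroxygenase paxillus_10214 had a log2 fold change of 0.03 and the monooxygenase paxillus_3631 also had 0.03. The median over the 14 was 0.65, against -0.07 over all isotigs. A second list holds 7 isotigs placed, as are the quinate transporters, with iron reduction and homeostasis. It includes the phenylalanine ammonia lyases paxillus_5484 and paxillus_5485, which the study's text names with pigment synthesis. On CMC these lyases were 2.48-fold and 2.58-fold higher. The median of the list was 0.88. In the list 6 of 7 passed and were higher, 3 of them over 2-fold, beside the same shares of 19.0% and 1.66% of all isotigs. Siderophore isotig paxillus_6835, with 0.13 (adjusted p = 0.105), was the exception. The study's text gives rises on the extracts as its rule, and these isotigs were named with results in view. The iron permease paxillus_2900 fell short of that rule, at 0.64 on FH, 0.50 on MH and -0.0063 on MC. These lie below 0.69, the natural logarithm of 2, and its change on CMC was 0.72. For these reasons, and because the MMN arrays of slide 2 served both MC and CMC, these counts are not independent evidence of a direction.

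In the comparison of CMC and MC, the level was lower on CMC for 11 of the 14 isotigs that act on aromatic compounds and for 6 of the 7 of the other list. It was lower on CMC for 45.9% of all isotigs. As the lists were chosen for rises on extracts that include MC, nothing is read from these counts. The tyrosinase paxillus_1195 had the largest difference, -2.14 on the log2 scale. Higher on CMC, as the transporters were, were the laccases paxillus_4041, at 0.45, paxillus_3452, at 0.19, and paxillus_3450, at 0.13, and the iron permease paxillus_2900, which takes up iron, at 0.73.

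Profiles were also compared over all 18 arrays, with each value set against the MMN mean of its slide. The profiles of paxillus_6174 and paxillus_6175 had a Pearson correlation of 0.977, and those of paxillus_8507 and paxillus_8080 one of 0.970. Between a dioxygenase and a transporter it was 0.596 to 0.690. For paxillus_8507, the other transporter ranked 2 of 12213 isotigs, and for paxillus_8080 it ranked 6. Similarly, paxillus_6174 ranked 2 for paxillus_6175, and paxillus_6175 ranked 6 for paxillus_6174. Such values were not rare, as 140 to 389 isotigs exceeded a correlation of 0.9 with 1 of the 4. All points of a slide share its MMN mean, and the correlations are a description of these arrays.

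With the 4 isotigs themselves left out, the closest profiles to paxillus_6174 were those of paxillus_8953 (0.981), paxillus_3527 (0.981) and paxillus_3012 (0.980). For paxillus_6175 they were those of paxillus_3527 (0.978), paxillus_8877 (0.977) and paxillus_8739 (0.970). A correlation ignores size: the log2 fold change of paxillus_8739 on MH was 2.13, against 1.12 for paxillus_6175. Nearest to paxillus_8507 were paxillus_8185 (0.974), paxillus_2190 (0.963) and paxillus_5198 (0.958), and to paxillus_8080 they were paxillus_4298 (0.980), paxillus_7179 (0.979) and paxillus_7713 (0.976). The files give no annotation for these isotigs. Among the listed isotigs, siderophore isotig paxillus_6835 was the closest to both dioxygenases, at 0.945 with paxillus_6174 and 0.960 with paxillus_6175. Laccase paxillus_4041 was the closest to both transporters, at 0.931 with paxillus_8507 and 0.903 with paxillus_8080.

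Replicates of a medium gave a further measure that does not rest on the differences between media. The deviations of the arrays from their group means had a correlation of 0.679 between paxillus_6174 and paxillus_6175 over 18 arrays. The MMN arrays of both slides, which may hold the same cultures, count as separate arrays in this value. For MMN replicate 2 the deviations were -0.13 and -0.09 on slides 1 and 2 for paxillus_6174, and -0.14 and -0.17 for paxillus_6175. The correlation was 0.383 between the transporters and between -0.0930 and 0.266 across the families. Over the 294 other pairs among the 25 isotigs of this account and the lists, the median was 0.206 and 22 pairs exceeded 0.679. Other pairs of 1 family with close isotig numbers were the phenylalanine ammonia lyases paxillus_5484 and paxillus_5485, with 0.670, and the ferric reductases paxillus_2315 and paxillus_2317, with 0.861. The laccases paxillus_3450 and paxillus_3452 had 0.868, the highest of these other pairs, and the monooxygenases paxillus_3631 and paxillus_3633 had 0.668. Isotigs of 1 isogroup can share sequence, and whether the probes of paxillus_6174 and paxillus_6175 overlap was not examined, so the pair may not be separate measurements. The residual SD of a replicate was 0.098 for paxillus_6174 and 0.111 for paxillus_6175 on the log2 scale. It was 0.055 for paxillus_8507 and 0.061 for paxillus_8080, against a median of 0.083 over all isotigs.

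**Figure D4:**
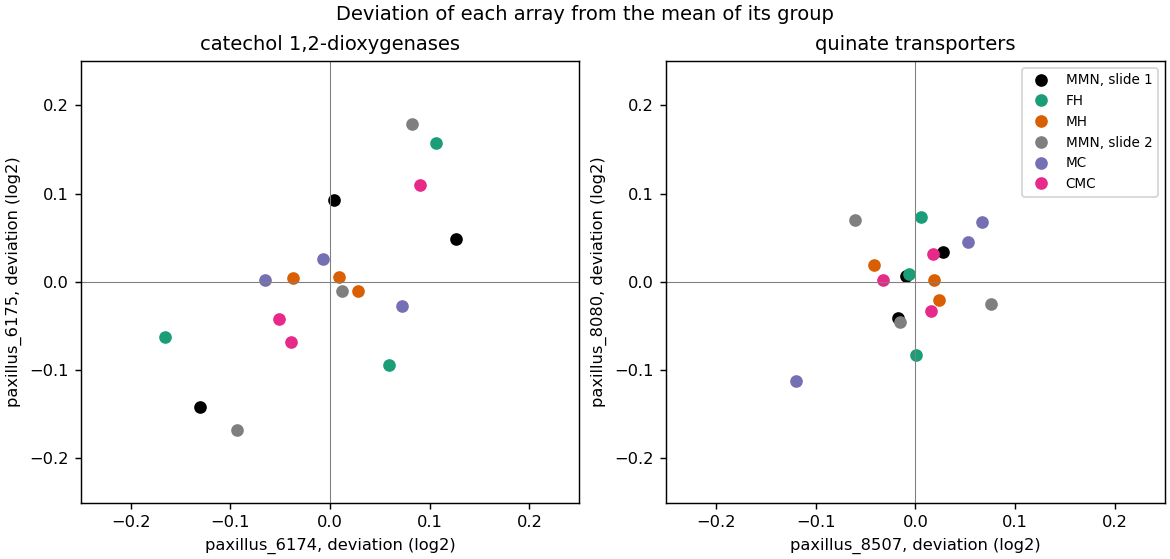
Deviation of each array from the mean of its group (log2) for the 2 dioxygenase isotigs (left) and the 2 transporters (right), with points coloured by group. Over all arrays, the deviations of the dioxygenase isotigs have a correlation of 0.679, and those of the transporters 0.383 with a narrower spread. The MMN arrays of both slides, which may hold the same cultures, are shown as separate points.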

How the data were processed

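RNA from mycelium was hybridised to NimbleGen arrays, 1 sample an array. The authors deposited log2 values made with robust multi-array average (RMA), named in the submitters' processing notes, with 1 value for each isotig and array. The base of the logarithm is not stated and was inferred from the range of the values. The RMA version and the test used by the authors were not given in the sources used here. Identical values stand in the series table. A linear model with 6 group means was fitted to all 18 arrays and 12214 isotigs with limma 3.58.1 in R 4.3.3, with Benjamini-Hochberg adjustment over all isotigs. With 12 residual degrees of freedom, the number of arrays limits the precision. The fit was tested on simulated data.

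The MMN arrays of each slide were a group of their own in this fit. In some alternatives the MMN cultures of slides 1 and 2 were treated as the same, since their numbers agree and the deviations of same-numbered arrays correlated at 0.255, 0.451 and 0.495. The alternatives tried were the replicate block, other uses of the MMN arrays, thresholds, filters, normalizations and variance models, and leaving out each array or, added after seeing the data, each MMN culture.

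The 4 isotigs and the lists were chosen with earlier results of these data known. Named isotigs are the 4, the listed ones and, for each of the 4, the 3 isotigs outside the 4 with the most similar profile over the 18 arrays.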

Additional observations from a re-analysis of the deposited data

How the results depend on the processing

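None of the changes of the 4 isotigs turned its direction on any medium under the 32 alternatives. Many of these cannot move a given change. Other thresholds, blocks or variance models, and leaving out an array of a group not compared, return the same value. On CMC, the log2 fold changes of paxillus_8507 and paxillus_8080 passed the threshold in all 32 alternatives. Their ranges were 0.60 to 0.67 and 0.62 to 0.69. Leaving out single arrays or MMN cultures gave 0.25 to 0.34 for paxillus_6174, which lost the threshold without replicate 2 of CMC or of MMN on slide 2, and 0.14 to 0.32 for paxillus_6175, which gained it without MMN replicate 1 of slide 2. It also gained it with MMN averaged over both slides (0.28). A threshold of 0.05 leaves the fit and the change (0.23) as they were, and the adjusted p of paxillus_6175, 0.030 from limma, lies under it. The numbers of isotigs called on CMC, 203 higher and 43 lower, became 504 and 105 with the 2-fold threshold read on a natural logarithm, and were 174 to 241 and 43 to 49 when arrays were left out.

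With the replicate block, the same numbers were 203 and 43, and paxillus_6174 (0.30) and paxillus_6175 (0.23) kept their sides of the threshold. CMC and MMN share only a replicate number: the deviations of same-numbered arrays correlated at -0.00758, -0.285 and -0.142.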
